A study of Mus musculus with 10 samples.

Results

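The 10 expression arrays of this study fell into 2 sets that follow the number at the end of the sample titles. Arrays 1 and 2 of each genotype (2 WT and 2 Rac2-/-, 4 arrays) were compared with arrays 3 to 5 of each genotype (3 WT and 3 Rac2-/-, 6 arrays), which together are all 10 arrays of the series. The sets were chosen on the values themselves, since the arrays had been seen to stand apart in this way, so differences between the sets are a description and carry no p-value. The cells were bone marrow-derived macrophages (BMDMs) from male C57BL mice, either WT or with a homozygous deletion of Rac2, a small GTPase of blood cells. Both genotypes were grown in 20% FBS with MCSF at 50 ng/ml for 7 days, at 16% oxygen, over 8 days of culture, and received no other treatment. The series design gives 5 mice for each genotype, but the labels do not tie an array to a mouse. No label or file header names a culture date, an RNA preparation, a hybridization or a scan that separates arrays 1 and 2 from arrays 3 to 5, so all of these cannot be told apart.

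BMDMs are made by growing bone marrow cells in MCSF, the ligand of the Csf1r receptor, which directs them towards macrophages and keeps them alive. Such cultures can differ in how many cells still divide and in how many other marrow cells remain. A whole-transcript array reads each gene through short probes along its length, and probes differ in how they respond to labelling and hybridization. RMA turns the probes of a feature into a single log2 value, on which a difference of 1 is a doubling.

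The labelled genotype was clear in both sets. Rac2 read 11.81 and 11.82 in WT arrays 1 and 2 and 12.26, 12.19 and 12.42 in WT arrays 3 to 5. In Rac2-/- cells it read 6.90 and 6.80 in arrays 1 and 2 and 7.04, 7.54 and 7.20 in arrays 3 to 5. Every WT array lay above every Rac2-/- array. Within each genotype Rac2 was lower in arrays 1 and 2, by 0.47 in WT and 0.41 in Rac2-/-.

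Gene expression differed between the array sets in the same direction in both genotypes. Over the features that passed a filter on low values, the median absolute log2 difference between the sets was 0.26 in WT and 0.27 in Rac2-/-. The difference between the genotypes over the same features had a median absolute size of 0.10. A difference of at least 1 was found between the sets in 2088 features and between the genotypes in 303. Of all features, 80.5% differed with the same sign in WT and in Rac2-/-, and the differences of the 2 genotypes correlated at 0.87 across features, which share probes and are not independent replicates. Log2 values of arrays of the same set correlated at 0.974 to 0.996, also across genotypes (0.974 to 0.987), and those of the same genotype but different sets at 0.943 to 0.955.

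**Figure D1:**
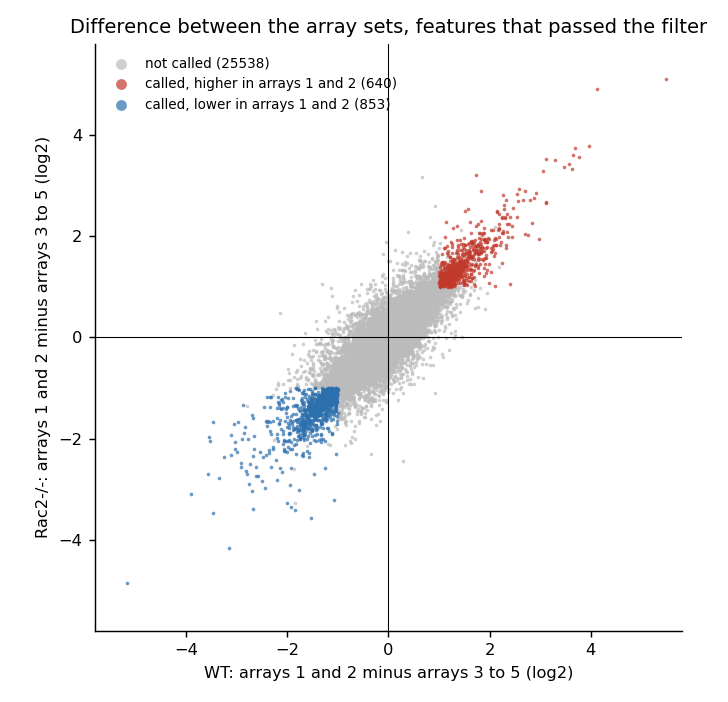
Log2 difference between arrays 1 and 2 and arrays 3 to 5 in WT (horizontal axis) and in Rac2-/- (vertical axis), a point for each feature that passed the filter. Features called higher in arrays 1 and 2 are red (640) and those called lower are blue (853), and the cloud runs along the diagonal (correlation 0.87), with some features far from 0 in a single genotype, such as Glrp1 (-1.57 in WT and -0.27 in Rac2-/-).

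A feature was called between the sets where it differed at least 2-fold in WT and in Rac2-/- alike, in the same direction, with all 4 arrays of one set beyond all 6 of the other. By this rule 640 features were higher in arrays 1 and 2 (2.37% of those tested) and 853 were lower (3.16%). Of 16882 genes read from features with a single symbol, 232 were higher (1.37%) and 424 were lower (2.51%). These shares come from the contrast that chose the sets and are given as the background for the counts that follow. Called genes had a median within-group SD of 0.13 over arrays of the same genotype and set, the same as over all genes (0.13), beside a median difference of 1.23 in the genotype where it was smaller. At least 4-fold, 9 genes were higher and 12 lower, and at least 8-fold 2 were higher and 0 lower.

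The gene that differed most was Usp17ld, a member of a family of deubiquitinating enzymes with many near-identical copies, which these probes may not separate. It read 11.54 and 11.27 in WT arrays 1 and 2 and 6.09, 5.58 and 6.1 in WT arrays 3 to 5, and 11.10 and 11.25 against 6.23, 6.04 and 5.91 in Rac2-/-. Usp17ld was thus near the median of all features in arrays 3 to 5 and bright in arrays 1 and 2, a difference of 5.30 ± 0.13 (SE, n = 4 and 6). Micos10, a subunit of the complex that forms mitochondrial cristae, read 11.50, 11.38, 11.55 and 11.54 in the arrays numbered 1 and 2 and 7.91 to 8.30 in the other 6. Its difference was 3.42 ± 0.07, and it was the only other gene at least 8-fold higher. Gas5, a noncoding RNA that holds snoRNAs in its introns, read 11.73 to 11.97 in arrays 1 and 2 and 8.54 to 9.49 in arrays 3 to 5 (2.76 ± 0.12). Ppp4r2, a regulatory subunit of protein phosphatase 4, was 2.70 ± 0.12 higher. Tns1, which encodes the focal adhesion protein tensin, was 2.52 ± 0.17 higher by its brightest feature, while the other 5 features of Tns1 lay between -0.66 and 0.62.

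The 15 genes highest in arrays 1 and 2 by this rule also held Ndufa4, Psmc5, Snord15a, Ier3ip1, AY036118, C1galt1c1, Zswim7, Tmem14c, Hypk and Dcun1d5, each higher by 1.84 to 2.32. In each of them the 4 arrays numbered 1 and 2 lay within 0.45 of each other, and the lowest of them was at least 1.53 above the highest of the other 6. Marco, a scavenger receptor of macrophages, was higher as well. It read 10.68, 10.82, 11.10 and 11.10 in arrays 1 and 2 and 9.14 to 9.86 in arrays 3 to 5 (1.34 ± 0.12).

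Among genes lower in arrays 1 and 2, Uqcc2, an assembly factor of respiratory complex III, read 6.83 and 7.28 in WT arrays 1 and 2 and 9.51, 9.47 and 9.51 in WT arrays 3 to 5. In Rac2-/- it read 6.58 and 6.98 against 9.76, 9.76 and 9.78. The groups did not overlap, and the difference was -2.72 ± 0.13. Trp53inp2, which takes part in autophagy, read 8.23 to 8.64 in arrays 1 and 2 and 10.92 to 11.19 in arrays 3 to 5 (-2.59 ± 0.07). Klf13, a zinc finger transcription factor, was lower by 2.40 on the log2 scale (-2.40 ± 0.11), and Ceacam1, an adhesion receptor, differed by -2.25 ± 0.15. Eif4ebp2, a repressor of the cap-binding factor eIF4E, read 8.17 to 8.40 against 10.24 to 10.56 (-2.14 ± 0.06). Gpx3, a secreted glutathione peroxidase, had a similar difference (-2.39 ± 0.32) with a wider spread: 7.69, 6.79, 6.55 and 8.02 in arrays 1 and 2 and 8.73 to 10.19 in arrays 3 to 5. Scand1, Ccnk, Gatc, Fbrs, Papss2 and Cd59a made up the rest of the leading genes with Atp5g1, Snord82 and Snord73b, at differences between -2.02 and -2.66.

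Maf and 3 actin regulators are given next as single examples among the 424 genes called lower, picked after their values were seen. Maf, a transcription factor of mature macrophages, read 10.29, 10.31, 10.22 and 10.50 in arrays 1 and 2 and 11.85 to 12.07 in arrays 3 to 5 (-1.67 ± 0.07). Wasf2, the WAVE protein through which Rac acts on actin, read 9.16 to 9.28 against 10.83 to 10.95 (-1.68 ± 0.06). Wasl, which encodes N-WASP, differed by -1.52 ± 0.09 and Wipf1, a partner of WASP, by -1.47 ± 0.07. The actin regulators differed by a like amount in each genotype: -1.69 in WT and -1.66 in Rac2-/- for Wasf2, -1.50 and -1.54 for Wasl, and -1.46 and -1.48 for Wipf1.

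**Figure D2:**
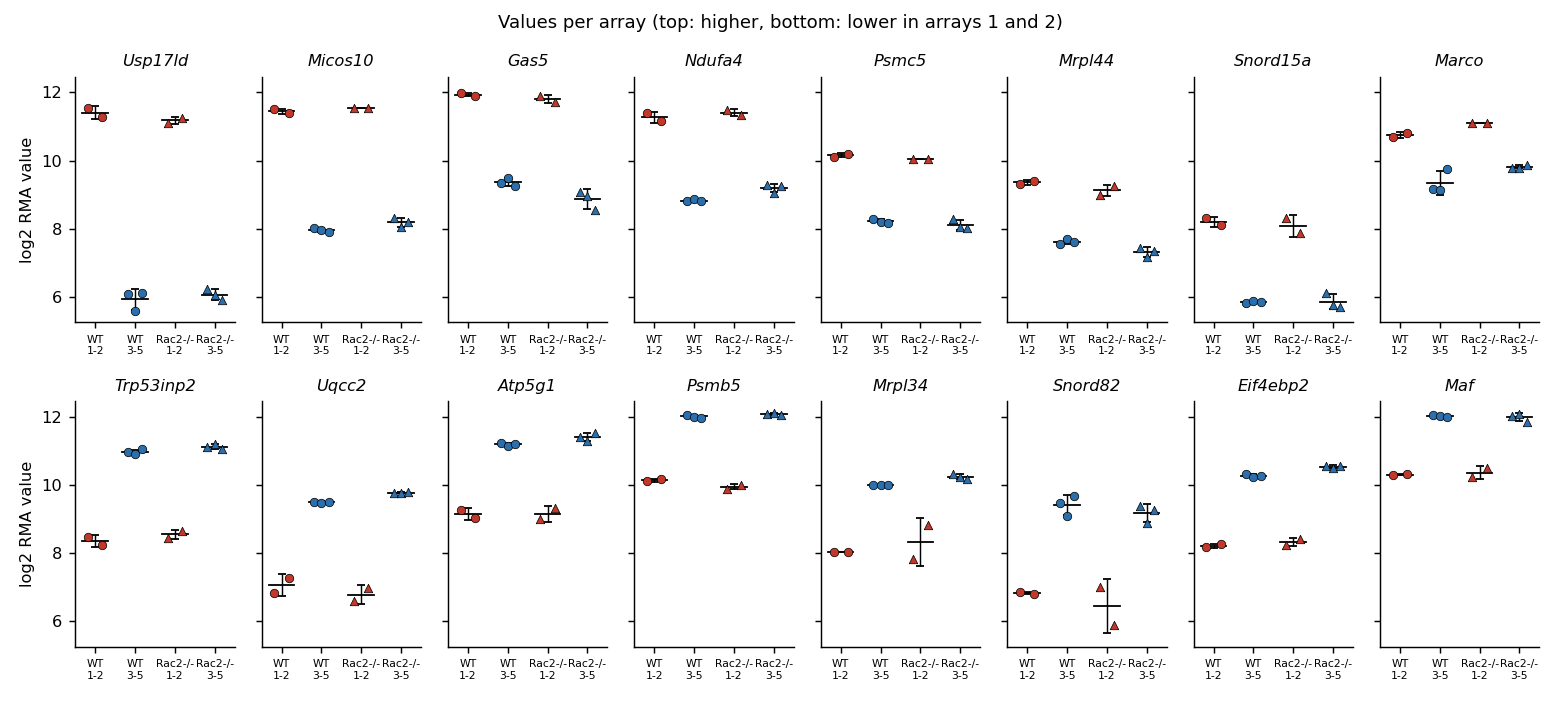
Log2 RMA values of 16 genes in each of the 10 arrays (circles WT, triangles Rac2-/-, red arrays 1 and 2, blue arrays 3 to 5), with the mean (line) and SD (bar) of each group of 2 or 3 arrays. The 8 genes of the upper row were higher and the 8 of the lower row lower in arrays 1 and 2 of both genotypes, with no overlap between the sets in any of the 16.

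Subunits of the same complex lay on opposite sides. The respiratory chain passes electrons to oxygen in the inner mitochondrial membrane and drives the ATP synthase. Of its 35 measured nuclear genes 5 were called higher and 2 lower, or 20.0%, beside 3.89% of all genes. The list had a median level of 10.3, and 7.85% of all genes with levels from 10 to 11 were called. Ndufa4 read 11.15 to 11.47 in arrays 1 and 2 and 8.80 to 9.28 in arrays 3 to 5 (2.32 ± 0.08), and Ndufs1, Ndufa1, Ndufa5 and Uqcrfs1 were higher by 1.01 to 1.33 in each genotype. Atp5g1, a c-ring subunit of the ATP synthase, read 9.27, 9.02, 8.99 and 9.31 against 11.13 to 11.51 (-2.15 ± 0.09), although a dimmer feature of the same gene differed by only -0.27 ± 0.22. Ndufs8, a complex I subunit like Ndufs1, was lower by -1.35 in WT and -1.19 in Rac2-/-. The median of the list was 0.26 in WT and 0.18 in Rac2-/-, beside -0.01 and -0.02 over all genes, and 24 members were higher in both genotypes and 11 lower in both.

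The proteasome, which degrades ubiquitinated proteins, was alike. Of 40 measured subunits, 5 were called higher and 2 lower, or 17.5%, beside 3.89% of all genes. Their median level was 9.96, and 9.06% of all genes with levels from 9 to 10 were called. Psmc5, an ATPase of the base, read 10.03 to 10.20 in arrays 1 and 2 and 8.02 to 8.29 in arrays 3 to 5 (1.92 ± 0.06). Psmb5, the subunit with the chymotrypsin-like activity, read 9.89 to 10.17 against 11.97 to 12.12 (-2.0 ± 0.07). Psmb6, which forms the same inner ring as Psmb5, was higher by 1.26 in WT and 1.23 in Rac2-/-, and Psmb3 of that ring differed by -1.49 and -1.52. Over the list, 29 subunits were higher in both genotypes and 9 lower in both, with medians of 0.51 and 0.40.

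Calls among ribosomal proteins, read at the brightest feature of each gene, were nearly all on the higher side. Of 63 cytosolic ribosomal protein genes 5 were called higher (Rps21, Rps3a1, Rpl13, Rps14 and Rps25) and 0 lower. This share was 7.94%, beside 3.89% of all genes. Their median level was 11.33, and 2.77% of all genes with levels above 11 were called. In both genotypes 40 were higher and 19 lower. Other features of ribosomal protein genes were called in both directions. A dimmer feature of Rpl13 was called lower (-2.65 ± 0.46). So was a feature of Rps15 with a mean of 11.48 (-1.14 ± 0.06), while its brightest feature (11.51) was not called (-1.0 ± 0.08). Of 8 features of Rpl9, 2 were called higher and 0 lower, and of 10 of Rpl23a, 3 higher and 1 lower. Of 77 mitochondrial ribosomal protein genes 8 were called higher and 1 lower (11.7%). Their median level was 8.59, and 8.07% of all genes with levels from 8 to 9 were called. Mrpl44 read 9.00 to 9.40 in arrays 1 and 2 and 7.16 to 7.69 in arrays 3 to 5 (1.77 ± 0.08), and Mrpl34 read 8.02, 8.03, 7.83 and 8.81 against 9.99 to 10.31 (-1.94 ± 0.15). Translation factors were split between Eif4a2, an RNA helicase (1.49 ± 0.06), and Eif4ebp2 (-2.14 ± 0.06), the only called members of 59. Of 22 genes of the TCA cycle 14 were higher in both genotypes and 5 lower in both. Its 3 called members (13.6%, at a median list level of 9.91, beside 9.06% of all genes from 9 to 10) were parts of 1 complex. All belong to the pyruvate dehydrogenase complex, which feeds pyruvate into the cycle. Dld was 1.25 ± 0.07 higher, Pdhb 1.10 ± 0.09 and Pdha1 1.07 ± 0.06.

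The spread within a set was small in these lists beside the differences between members. The median within-group SD was 0.08 for respiratory chain and cytosolic ribosomal genes, 0.07 for proteasome subunits, 0.09 for the TCA cycle and 0.13 over all genes. The median absolute WT difference was 0.59, 0.45, 0.54 and 0.39 in the same lists and 0.23 over all genes.

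**Figure D3:**
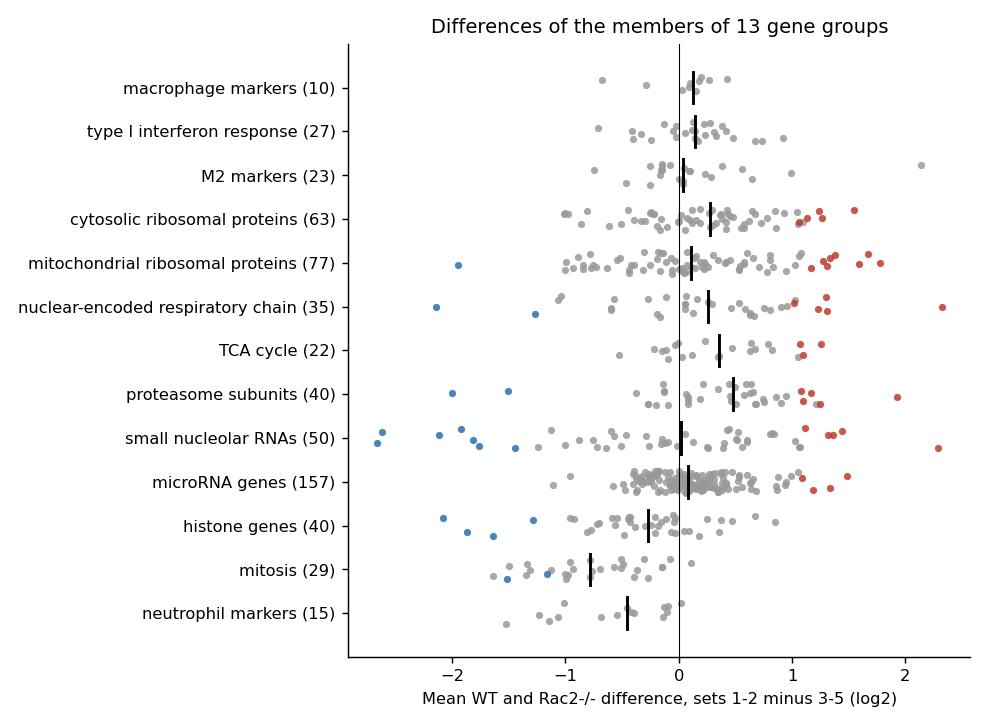
Mean of the WT and Rac2-/- log2 differences (arrays 1 and 2 minus arrays 3 to 5) for each measured member of 13 gene groups, with the number measured in brackets and the median as a black bar. Red members were called higher, blue members called lower and grey members not called, and the respiratory chain, proteasome, mitochondrial ribosomal and snoRNA groups hold both red and blue members.

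Small nucleolar RNA genes were called often. Small nucleolar RNAs guide the chemical modification of ribosomal and spliceosomal RNA and are mostly cut from introns of other genes. Of 50 measured, 5 were called higher and 7 lower, a share of 24.0% beside 3.89% of all genes. Snord15a read 7.86 to 8.31 in arrays 1 and 2 and 5.7 to 6.1 in arrays 3 to 5 (2.29 ± 0.11). Snord82 read 6.85, 6.80, 7.00 and 5.88 against 8.89 to 9.66 (-2.66 ± 0.20), and Snord73b read 5.63 to 6.35 against 8.10 to 8.95 (-2.62 ± 0.16). Snord15b, Snord22, Snord33 and Snord73a were also higher, and Snora21, Snora23, Snora52, Snora7a and Snord118 lower. Snord73a had a mean of 4.41 over the 10 arrays, under the lowest fourth-highest value that the filter kept (4.73). It thus passed only through the 4 arrays numbered 1 and 2, where it was higher. Snord118, with a mean of 5.11, passed through arrays 3 to 5, where it was higher. Neither call is independent of the filter, and both count in the share of 24.0%. SnoRNAs and the genes that hold them differed in the same direction in some cases and in opposite directions in others. Snord15a (2.35 in WT and 2.23 in Rac2-/-) and Snord15b (1.34 and 1.39) lie within Rps3, which was also above 0 (0.63 and 0.53). Snord73b lies within Rps3a1, which was higher in arrays 1 and 2 (1.12 in WT and 1.98 in Rac2-/-), as was Snord73a in the same gene (1.03 and 1.20). Snord82 lies within Ncl, which encodes nucleolin and differed by 0.34 and 0.20. Snora52 lies within Rplp2 (0.97 and 0.75) and differed by -1.88 and -1.65. Of 16 called snoRNA and microRNA genes, 10 lay within a measured gene. Of those, 5 had the opposite sign to that gene in both genotypes, while the other 5, Snord73a among them, had the same sign. Holding genes were matched by position alone, whatever the strand, so a match does not show that the small RNA is cut from that transcript.

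Of 157 microRNA genes 4 were called, a share of 2.55% beside 3.89% of all genes. Their median level was 5.88, and of all genes 0.101% were called at levels from 5 to 6 and 0.757% from 6 to 7. Among the 4, Mirlet7f-1 and Mir204 passed the filter only through arrays 1 and 2, as given below, so this share is not independent of it. All 4 were higher in arrays 1 and 2: Mirlet7f-1, Mir199a-1, Mir204 and Mir320. Such genes give a hairpin that is cut to a mature strand, whose seed (bases 2 to 8, in capitals) pairs with target mRNAs. The mature sequences below, from RefSeq on GRCm38.p6, are shown since each of the genes stands for another seed, and Mir320 is given by name alone.
mmu-let-7f-5p: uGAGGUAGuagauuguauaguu
mmu-miR-199a-5p: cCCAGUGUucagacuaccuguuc
mmu-miR-199a-3p: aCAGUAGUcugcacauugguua
mmu-miR-204-5p: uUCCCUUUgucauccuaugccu

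The let-7f strand lies at chr13:48537889-48537910 and the 5p strand of miR-199a at chr9:21496537-21496559, both on the minus strand, and miR-204-5p at chr19:22750610-22750631 on the plus strand. None of these seeds was shared. Mirlet7f-1 read 5.76, 6.25, 6.08 and 5.37 in arrays 1 and 2 and 4.13 to 4.63 in arrays 3 to 5 (1.49 ± 0.14). Mir204 read 4.73 to 5.29 against 3.46 to 3.68 (1.33 ± 0.11), and Mir199a-1 read 7.63 to 8.15 against 6.32 to 6.91 (1.18 ± 0.13). In arrays 3 to 5 Mirlet7f-1 and Mir204 lay below the lowest fourth-highest value that the filter kept (4.73). Both thus passed it only through the 4 arrays numbered 1 and 2, where they were higher, so their calls are not independent of the filter. By position alone, whatever the strand, Mir199a-1 lies within the span of Dnm2, which encodes dynamin 2 and differed the other way (-0.66 in WT and -0.64 in Rac2-/-). Mir204 lies within that of Trpm3 (0.10 and 0.11). The labels name total RNA, and no source at hand says whether a feature reads the hairpin or the mature strand.

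Features of the same gene did not always differ alike. Among 653 genes with exactly 2 features that passed the filter, the set differences of the 2 features correlated at 0.51 across genes. Of 127 genes with several features and at least 1 called, 36 had 2 or more called the same way, and in 45 no other feature differed by 0.5 or more in the direction of the most different one. Chd7, a chromatin remodeller with the most features of these genes (29), had differences from -1.10 to 0.80 with a median of -0.06. The 19 features of 4932438A13Rik ran from -1.65 to 0.05, and 5 of them were called lower. Fut11, a fucosyltransferase, had a feature at 2.54 ± 0.24 and another at -0.42 ± 0.09, and Atf7ip, a partner of histone methyltransferases, at 1.10 ± 0.08 and -0.93 ± 0.07. Features named Rpl23a, a ribosomal protein with many processed copies in the genome that probes may share, ran from -3.04 to 1.38, with 3 called higher and 1 lower. In other genes all features lay on the same side. The 5 features of Cbx3, a heterochromatin protein, were at 0.91 to 1.29, and the 4 of Gas5 at 1.15 to 2.76, of which 2 were called.

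Markers of macrophages had a median absolute WT difference of 0.18 between the sets, beside 0.23 over all genes. Of 10 measured macrophage markers 0 were called. Csf1r read 12.72 to 12.91 in arrays 1 and 2 and 12.57 to 12.75 in arrays 3 to 5, and the sets overlapped. Adgre1 (F4/80), Cd68 and Cd14 differed by 0.02 to 0.22 in either genotype. Spi1, which encodes the transcription factor PU.1, was the exception in size, with 11.06 to 11.23 against 11.75 to 11.88 and no overlap (-0.68 ± 0.06), under the 2-fold needed for a call. None of 23 M2 markers, 27 genes of the type I interferon response, 27 of NF-kB and early inflammation and 26 lysosomal genes was called. At the share called over all genes (3.89%), lists of these sizes, macrophage markers included, would hold few calls. The counts of 0 thus do not set these lists apart from other genes. Ccl12, a chemokine on the M2 list used here, had large differences (2.11 in WT and 2.17 in Rac2-/-), but its arrays overlapped between the sets. The study itself counts Ccl12 among genes not yet classed as M1 or M2.

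Genes of mitosis had values below 0 in most cases but few calls, and those of S phase and DNA replication had no calls. Of 29 measured genes of mitosis, 22 were lower in WT and 29 in Rac2-/-, with medians of -0.42 and -1.14. Of them 2 were called (Aurkb and Ube2c), or 6.9%, beside 3.89% of all genes. The proliferation marker Mki67 read 6.45 and 5.85 in WT arrays 1 and 2 and 7.45, 7.42 and 6.90 in WT arrays 3 to 5. In Rac2-/- cells it read 7.38 and 6.85 in arrays 1 and 2 and 7.82, 7.55 and 10.51 in arrays 3 to 5. Rac2-/- array 5 thus stood apart from all others, and without it the median of the mitosis list in Rac2-/- was -0.31, with 21 of 29 genes lower. The median within-group SD of the list was 0.90. Aurkb, a mitotic kinase, read 7.92 to 8.72 in arrays 1 and 2 and 9.14 to 9.36 in arrays 3 to 5 other than Rac2-/- array 5, where it read 10.62. Of 30 genes of S phase and DNA replication 0 were called. Their median was 0.03 in WT, where 18 were higher and 12 lower, and -0.40 in Rac2-/-, where 6 were higher and 24 lower. Without Rac2-/- array 5 the median in Rac2-/- was 0.12, with 18 higher and 12 lower. Of 40 histone genes 4 were called, all lower. H4c4 read 10.29 to 10.39 in arrays 1 and 2 and 11.96 to 12.94 in arrays 3 to 5 (-1.87 ± 0.17), and H2bc3, H2ac15 and H2bc14 were the others. The part of dividing cells in the histone values was not tested.

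Markers of other marrow cells were compared for the same reason. In bulk RNA, fewer cells of a type and less RNA per cell cannot be told apart. Of 15 neutrophil markers 0 were called, 12 were lower in WT and 14 in Rac2-/-, and their median within-group SD was 0.87, beside medians between the sets of -0.51 in WT and -0.72 in Rac2-/-. The granule gene Ngp read 11 and 8.51 in WT arrays 1 and 2 and 11.73, 11.69 and 9.23 in WT arrays 3 to 5, and 7.73 and 10.18 against 11.17, 10.96 and 10.48 in Rac2-/-. Lcn2, a neutrophil lipocalin, read 8.43 to 11.01 in arrays 1 and 2 and 10.01 to 11.64 in arrays 3 to 5. The sets overlapped in both genes. No marker of monocytes (7), dendritic cells (9), B cells (7), T and NK cells (7), fibroblasts and stroma (11) or endothelial cells (7) was called. Apart from monocytes, these lists had median levels of 5.38 to 6.79. Of all genes, only 0.101% were called at levels from 5 to 6 and 0.757% from 6 to 7. The counts of 0 thus say little about those cells.

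**Figure D4:**
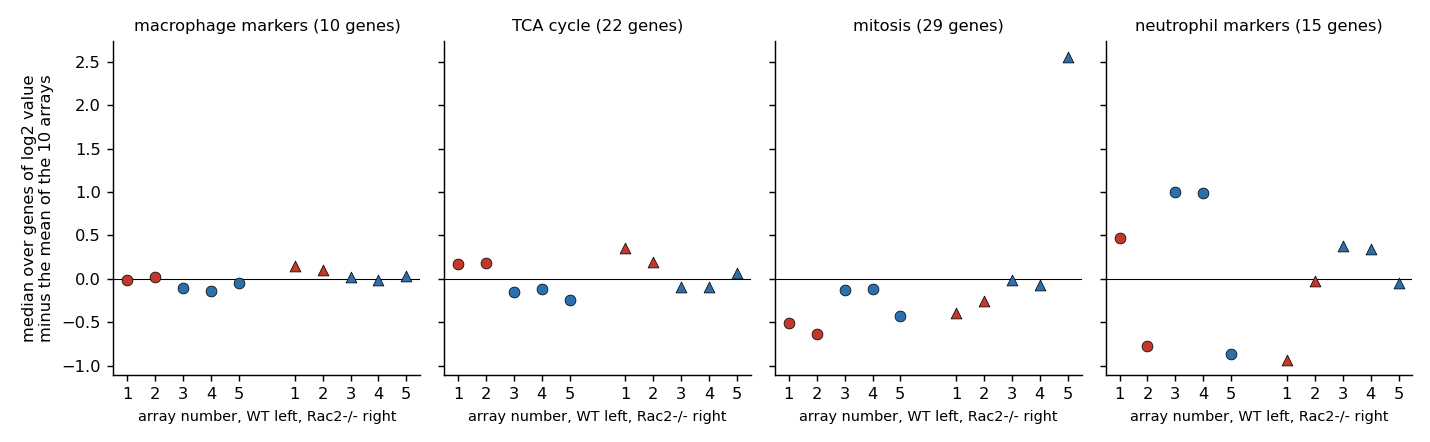
Median over the genes of 4 lists of the log2 value minus that gene's mean over the 10 arrays, by array number (circles WT, triangles Rac2-/-, red arrays 1 and 2, blue arrays 3 to 5). Macrophage markers stay between -0.14 and 0.15, genes of mitosis reach 2.56 in Rac2-/- array 5 alone, and neutrophil markers run from -0.93 to 1.00 with no separation of the sets.

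Metabolic and signalling genes outside these complexes gave a few calls each. Slc40a1, the iron exporter ferroportin, read 10.65 to 11.40 in arrays 1 and 2 and 8.99 to 9.67 in arrays 3 to 5 (1.54 ± 0.17), and Tfrc, the transferrin receptor that imports iron, read 10.53 to 11.82 against 9.10 to 9.83 (1.48 ± 0.22). Both were higher and were the called members of 7 genes of the metal response. Of 32 HIF target and glycolysis genes 2 were called, Hk2 (1.13 ± 0.15), which encodes a hexokinase, and Higd1a (1.58 ± 0.12). Fads2, a fatty acid desaturase, was the called member of 14 genes of fatty acid synthesis (-1.44 ± 0.23), and 10 of the 14 were lower in both genotypes. Nr1d1, the clock repressor REV-ERB alpha, read 7.55 to 7.68 against 8.57 to 9.49 (-1.52 ± 0.16), the called member of 16 clock genes. Genes of immediate early response gave 1 call of 21, Ier2 (1.08 ± 0.08), and heat shock and chaperone genes 0 of 15. Pmaip1, the p53 target NOXA, was 1.58 ± 0.12 higher, the called member of 12 p53 targets. Over all hand-written lists, 17 of 652 genes were called higher and 8 lower, or 3.83%, beside 3.89% of all genes.

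Calls in gene families are given beside all genes, of which 424 were called lower and 232 higher (3.89%). In both genotypes 7109 of all genes were lower and 6510 higher. Of 348 zinc finger genes named Zfp or Zkscan, many of them DNA-binding repressors, 21 were called lower and 4 higher (7.18%). In both genotypes 202 of them were lower and 101 higher. Of 307 solute carriers 3 were called lower and 4 higher (2.28%), too few to show a side. Of 276 olfactory receptors, which macrophages largely do not use, 1 was called (lower, 0.362%), and of 74 keratin genes and 18 defensins 0. These last families had median levels of 5.17 to 5.67, and 0.101% of all genes from 5 to 6 were called. Called protein-coding genes with a mean of at least 7 also differed in length. The 209 called higher spanned a median of 12.4 kb in the genome (quartiles 5.6 and 23.9), the 399 called lower 30.4 kb (10.4 and 77.3) and all 8645 such genes 23.1 kb (10.3 and 50.7). The 300 bases at their starts held a median of 59.0% G and C in genes called higher, 62.2% in genes called lower and 61.0% in all, from RefSeq promoters on GRCm38.p6 for 84.2%, 84.7% and 82.9% of the genes.

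The share called varied with the level of a gene. Among genes with a mean log2 value from 5 to 6, 0.101% were called, and from 6 to 7, 0.757%. The share was 5.10% from 7 to 8, 8.07% from 8 to 9, 9.06% from 9 to 10, 7.85% from 10 to 11 and 2.77% above. Features without a gene symbol were called more often than genes in every bin, with 5.12% from 5 to 6, 7.14% from 6 to 7 and 9.58% from 7 to 8. Their share was highest from 8 to 11, at 15.4%, 15.9% and 15.4% in steps of 1, and was 7.49% above. Of these, 4353 have identifiers before the first that the platform annotation lists with a gene, and 221 of them were higher and 294 lower in arrays 1 and 2, a share of 11.8% beside 4.13% of features with 1 symbol. What these features measure is stated in none of the sources at hand.

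**Figure D5:**
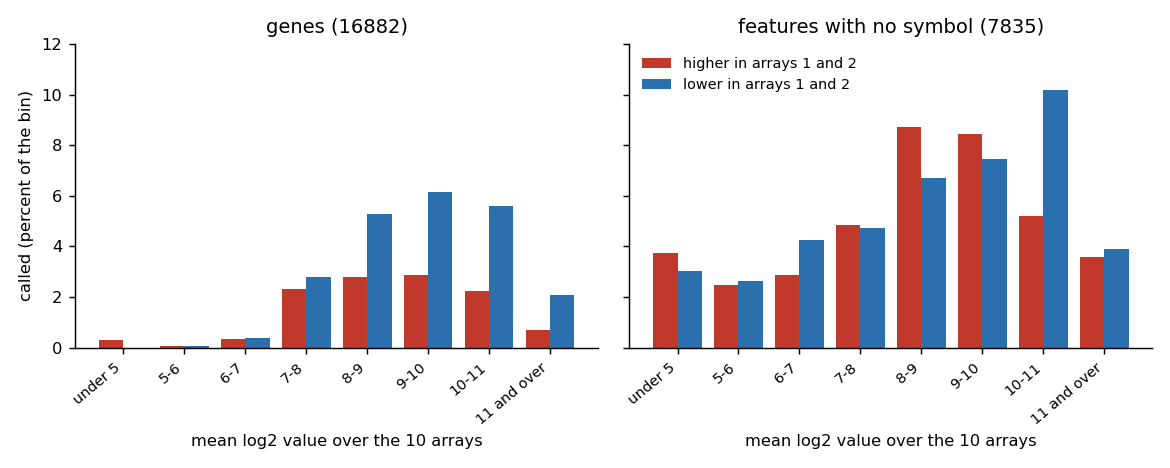
Share of genes (left) and of features with no gene symbol (right) called higher (red) or lower (blue) in arrays 1 and 2, in percent, by mean log2 value over the 10 arrays. Genes below a mean of 7 were called in under 1% of cases in each bin, while features with no symbol were called in every bin at 5% or more.

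The values as a whole also differed in shape between the sets. The SD over all features was 2.29 to 2.31 in the 4 arrays numbered 1 and 2 and 2.36 to 2.37 in the other 6. The mean SD of the sets differed by -0.063 over all features and by -0.02 over those that passed the filter. The 25th percentile was 4.83 to 4.86 against 4.76 to 4.81, and the 75th percentile 8.11 to 8.16 against 8.20 to 8.27, while the medians overlapped (6.09 to 6.14 and 6.07 to 6.14). With all arrays brought to the same distribution 1488 features were called, 727 higher and 761 lower, of which 628 and 747 were among the 640 and 853 called without that step.

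Whether the difference between the sets was itself different in WT and Rac2-/- was tested for each feature, as the interaction of genotype and set in limma. Of the features that passed the filter 0 reached an adjusted p under 0.05 (0%), with 1560 at an unadjusted p under 0.05, or 5.77% of all. Without Rac2-/- array 2 the adjusted count was 8 and the unadjusted count 3016. Under the other alternatives the adjusted count was 0 and the unadjusted count ran from 1147 (without WT array 3) to 2087 (without Rac2-/- array 1). The lowest adjusted p of a gene was 0.344, for 1700054O19Rik. It read 7.00 and 7.18 in WT arrays 1 and 2 and 7.33, 7.35 and 7.43 in WT arrays 3 to 5, and 6.90 and 6.79 against 8.04, 8.00 and 8.18 in Rac2-/-. E130009M23Rik (0.49 in WT and -0.37 in Rac2-/-) followed at a limma adjusted p of 0.441, then Plekhf1 (-0.60 and 0.05), Glrp1 (-1.57 and -0.27) and Fbxo31 (-0.86 and -1.66) at 0.484. The median absolute interaction was 0.11 among called genes and 0.12 among all genes, beside a median SE of 0.16. With 2 and 3 arrays in a group, differences of this size between the genotypes were not detectable. Immune genes that differed in size between the genotypes, such as the guanylate-binding proteins and immunity-related GTPases (medians of 0.27 in WT and 1.08 in Rac2-/- over 8 genes), did not pass either. Gbp3 read 10.78 and 11.10 against 9.99 to 10.26 in WT, and 10.70 and 9.51 against 9.01, 8.80 and 8.46 in Rac2-/-.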

How the data were processed

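RNA of BMDMs (5 WT and 5 Rac2-/- samples) was read on Affymetrix mouse whole-transcript arrays. The values deposited by the authors are on a log2 scale and come from RMA, the tool in the submitters' processing notes, which corrects the background, normalizes between arrays and summarizes probes. The study's methods also name a filter, ComBat for a batch effect that is not described, and limma. It is not known whether ComBat had acted on these values. The filter was rebuilt here to leave as many features as the methods give, ranking the 34760 deposited features by their fourth-highest value. The lowest such value kept was 4.73. Symbols came from the platform annotation, updated through RefSeq GRCm38.p6 by Entrez identifier (21553 features) or accession (3), and 84 were kept as given. Genes were read from features with 1 symbol, at the feature with the highest mean.

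Arrays were grouped by genotype and by title number (1 and 2, or 3 to 5). The set difference and its SE came from limma 3.58.1 in R 4.3.3 (~ genotype + set), with no test. The interaction (~ genotype * set) was tested with eBayes, two-sided, and Benjamini-Hochberg adjustment at 0.05. Both fits were tested on simulated data. Since no label ties arrays to mice, these p-values measure only the spread between arrays, which may be technical in part. The number of arrays limits the precision.

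Members, gene lists and rules were chosen with earlier results of these data known. Named genes were Rac2, the 15 leading called genes in each direction, the leading members of each list or class, and the leading genes of the interaction. Outside this rule, after their values were seen, Maf, Marco, Wasf2, Wasl and Wipf1, the microRNAs, the snoRNAs with their holding genes, further members of lists and the genes with several features were named. Alternatives were the filter, 2 normalizations, the mean of a gene's features, other call rules, blocks for the replicate number, other variance settings and leaving out each array.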

Additional observations from a re-analysis of the deposited data

Results flagged for a closer look

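The values of 57 genes and 13 gene lists were searched for an array far from the others of its set, in 140 sets of 4 or 6 arrays. For unrelated sets from a single group, a gap as wide as these arises by chance in about 1 of 20, or 7 in all. The sets here mix both genotypes and many of the genes are related, so that number cannot be set against the count found. In all 12 gaps were found. Of these, 10 concerned Rac2-/- array 5. It read 10.51 for Mki67 (6.90 to 7.82 in the other 5 arrays of its set), 11.23 for Ccna2 (6.75 to 8.01), 10.62 for Aurkb (9.14 to 9.36) and 9.63 for Ube2c (6.87 to 7.55), all of them cell division genes. It also read 12.94 for the histone gene H4c4 (11.96 to 12.17) and 10.82 for H2bc3 (7.80 to 8.58). The median level was 9.43 for the mitosis list (6.25 to 6.97) and 8.22 for the list of S phase and DNA replication (7.14 to 7.32). Its value for Ceacam1 was 10.61 (9.76 to 9.88) and for Maf 11.85 (11.99 to 12.07). The other 2 were in Ier2, an immediate early gene, at 7.48 in WT array 2 (7.79 to 7.84 in the other 3 arrays) and 6.82 in Rac2-/- array 3 (6.59 to 6.66 in the other 5).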

How the results depend on the processing

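Features called between the sets numbered 1443 to 1527 (605 to 653 higher, 808 to 886 lower) when single arrays were left out, beside 1493, 640 and 853. Without overlap asked there were 1561 and without the filter 1541 (681 higher and 860 lower). A minimum log2 difference of 0.5 gave 5045 (2272 higher and 2773 lower) and of 2 gave 103 (53 and 50). The interaction count was 0 to 8, with 8 calls only without Rac2-/- array 2, among them Ptger3, Kdr and Snord14e, and 0 under the other settings. The same-numbered arrays of the 2 genotypes correlated at -0.104 to 0.246 once genotype and set were taken out, and different numbers of the same set at -0.177 to 0.104, so the numbers were not taken as pairs. With the number as a fixed replicate block the interaction gave 0 calls (1580 at an unadjusted p under 0.05), and as a random replicate block the median absolute set difference of genes was 0.22, the same as without it. The SD of the arrays differed between the sets by -0.063 over all features, by -0.02 over those that passed the filter and by -0.046 over those without a symbol, and the cause was not tested. Of 741 values of 57 genes under the alternatives 0 reversed and 8 moved by more than the SD of the gene. Genes called on the hand-written lists numbered 23 to 32 when single arrays were left out, beside 25. The 2 or 3 arrays of each group limit what the interaction could detect, and signal over background was not analysed here.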
